A study of Mus musculus with 14 samples.

Results

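Imprinted growth-network genes are read from only 1 of the parental gene copies, and 10 of them are described here in fibro-adipogenic progenitors (FAPs): Peg10, Peg3, Plagl1, Dlk1, Grb10, Cdkn1c, Ndn, Mest, H19 and Meg3. They were matched by symbol, and all 10 are among the 56953 genes of the table for BaCl2 injury and 8 among the 14330 genes of the table for glycerol injury. H19 and Meg3 after glycerol are not analysed here. The genes were chosen by measured values: Peg10 for its lower level in SMA cells after BaCl2 and Peg3 for its higher level in SMA cells after glycerol. For the 10 genes, comparisons of SMA with WT are therefore descriptions, including which of them passed a threshold. Of the 10, only Peg3 after BaCl2 and Peg10 after glycerol are given a p-value for that comparison, from libraries their own choice did not use. Genes outside the 10 are given theirs.

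The cells were primary FAPs, the mesenchymal stromal cells of skeletal muscle, taken with magnetic sorting from the tibialis anterior muscle of mice 3 days after an injection injury. The groups were SMA mice after BaCl2 (3 libraries), WT mice after BaCl2 (3 libraries), SMA mice after glycerol (4 libraries) and WT mice after glycerol (4 libraries). SMA stands for spinal muscular atrophy, a disease of too little SMN protein. The sources used here give neither the Smn1 allele, any SMN2 transgene nor the age and sex of the mice. They do not say whether each library came from a separate animal, so p-values measure the spread between libraries, which may be technical. In the labels the batch carries the name of the injury, and the effects of these cannot be told apart. BaCl2 kills muscle fibres and leaves little fat behind, whereas glycerol injury is used because fat fills the healing muscle.

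Genomic imprinting silences the maternal or the paternal copy of a gene through DNA methylation set in the germ line. Many imprinted genes act on growth before and after birth, and several are abundant in embryonic and stromal cells and decline as tissues mature. Peg10, Peg3, Plagl1, Dlk1, Ndn and Mest are expressed from the paternal copy in most mouse tissues, and H19, Meg3, Cdkn1c and (outside the brain) Grb10 from the maternal copy. Plagl1, also called Zac1, encodes a zinc finger factor that switches on several of the others, among them Cdkn1c, Dlk1 and H19.

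RefSeq promoter windows (GRCm38.p6) were matched for 7 of the 10 genes, with 11 start sites: Peg3, Plagl1, Dlk1, Grb10, Ndn, Mest and Meg3. The 250 bases before the start of Peg3 and of Dlk1 are shown because these genes were both higher in SMA cells after glycerol. Capitals mark CpG dinucleotides, the bases on which imprinting methylation lies. The Peg3 stretch is chr7:6730420-6730669 on the minus strand and the Dlk1 stretch is chr12:109452573-109452822 on the plus strand, both 5′ to 3′.
Peg3: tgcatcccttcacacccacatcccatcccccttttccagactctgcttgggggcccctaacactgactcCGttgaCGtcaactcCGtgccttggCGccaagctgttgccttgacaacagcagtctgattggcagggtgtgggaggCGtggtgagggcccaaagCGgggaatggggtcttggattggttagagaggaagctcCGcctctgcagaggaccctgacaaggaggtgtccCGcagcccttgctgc
Dlk1: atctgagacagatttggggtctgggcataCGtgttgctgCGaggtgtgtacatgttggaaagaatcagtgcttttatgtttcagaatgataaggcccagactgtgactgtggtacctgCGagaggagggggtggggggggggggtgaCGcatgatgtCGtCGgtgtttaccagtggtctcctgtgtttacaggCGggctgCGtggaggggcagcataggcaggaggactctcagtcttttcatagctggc
Each stretch holds 8 CpG. Over the whole window, from 250 bases before to 50 bases after the start, Peg3 holds 13 CpG and Dlk1 holds 9, against a median of 7 over the 32851 windows of that table. The most CpG among the members' windows was 45, at 1 of the 2 Grb10 starts. The letters GCCATNTT, the core of the YY1 motif, were searched on both strands and were found in 0 of the 11 windows, and 6.05% of all windows hold them.

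The libraries after BaCl2 hold 97.7 to 136 M counts each, so that the lowest count of any of the 10 genes was 418, for Cdkn1c in SMA library 1. The glycerol values are the authors' normalized counts, whose depth is unknown. Smn1, the gene behind the disease, was lower in SMA cells in both injuries, with a log2 fold change of -0.54 in each (edgeR adjusted p = 0.0131 after BaCl2, limma adjusted p = 0.0364 after glycerol). The threshold throughout was an adjusted p under 0.05, and markers counted as higher or lower passed it. The FAP marker Pdgfra had a mean of 868 ± 150 CPM in SMA libraries, against 895 ± 63.8 CPM in WT, after BaCl2 (SD, n = 3 each; CPM, counts in every M of a library after TMM scaling, where M is mega). Markers of muscle stem cells and myoblasts, with Des the 1 of 9 tested that was lower, summed to 106 to 131 CPM in SMA against 139 to 144 CPM in WT, although Pax7 itself had a mean of 0.0788 CPM in SMA and 0.0728 CPM in WT. The fibre gene Acta1 had 0.862 CPM in SMA, against 0.589 CPM in WT. Macrophage markers differed more: after BaCl2, 17 of 18 were higher in SMA libraries, with a summed level of 2557 to 3696 CPM in the SMA group and 1396 to 1930 CPM in the WT group. After glycerol 8 of 18 were higher, with sums of 158207 to 382286 in SMA and 131663 to 169456 in WT libraries. The summed FAP markers after BaCl2 were 46703 to 59859 CPM in SMA against 67350 to 74165 CPM in WT, with 5 of 18 markers lower. After BaCl2 the sums of Schwann cell markers (4 of 9 higher; 41.3 to 45.5 CPM in SMA, 25.5 to 31.1 CPM in WT), neutrophil markers (2 of 6 higher; 19.3 to 37.1 CPM and 9.10 to 13.4 CPM) and lymphocyte markers (1 of 4 higher; 9.10 to 11.1 CPM and 4.98 to 6.56 CPM) did not overlap either. The part of these shifts in the results that follow was not tested, and in bulk RNA fewer cells of a type and less RNA per cell cannot be told apart.

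Per kb of exon (GENCODE vM21), the noncoding RNA H19 stood highest of the 10 after BaCl2, at 136 ± 43.9 CPM per kb in SMA and 113 ± 11.3 CPM per kb in WT libraries (SD, n = 3 each). Grb10 came next, at 58.7 ± 9.86 CPM per kb in SMA and 61.3 ± 2.46 CPM per kb in WT libraries. The lowest levels were those of Dlk1, with 4.02 ± 0.343 CPM per kb in SMA and 2.93 ± 0.487 CPM per kb in WT libraries, and Cdkn1c, with 2.83 ± 0.818 and 3.39 ± 0.212 CPM per kb. In WT libraries the order ran H19, Grb10, Mest, Ndn, Meg3, Plagl1, Peg10, Peg3, Cdkn1c, Dlk1, and of these neighbours only Ndn and Meg3, and Cdkn1c and Dlk1, overlapped between libraries. In SMA libraries the order ran H19, Grb10, Mest, Ndn, Plagl1, Meg3, Peg3, Peg10, Dlk1, Cdkn1c, and Grb10 to Meg3 formed a chain of overlapping neighbours, as did Peg3 with Peg10 and Dlk1 with Cdkn1c. After glycerol Grb10 was the highest of the 8 listed genes, with 4849 ± 194 normalized counts per kb in SMA and 4648 ± 175 in WT libraries (n = 4 each), and Dlk1 the lowest, with 586 ± 175 and 225 ± 82.4.

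Peg10 derives from a retrotransposon, encodes a capsid-like protein and is needed to build the placenta. After BaCl2 it had 60.8, 59.4 and 62.2 CPM in SMA libraries, against 85.9, 106 and 97.5 CPM in WT libraries. The SMA libraries lay close together and all below every WT library, at 63.0% of the WT mean. The log2 fold change was -0.67 (SE 0.08), and it lay between -0.74 and -0.59 in the 6 fits that leave out 1 library. After glycerol Peg10 had 7886, 7941, 9002 and 8845 normalized counts in SMA libraries, against 7430, 7471, 7637 and 7979 in WT libraries. The groups overlapped, since WT library 4 lay above SMA libraries 1 and 2. The log2 fold change there was 0.14 (SE 0.06) and did not pass (limma adjusted p = 0.179).

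Peg3, a large protein with many zinc fingers that binds DNA and is active in muscle stem cells and stroma, was the other gene that guided the choice. After glycerol it had 9983, 10409, 10743 and 10202 normalized counts in SMA libraries, against 6786, 7983, 7432 and 6651 in WT libraries. The groups did not overlap, with SMA at 143% of WT and a log2 fold change of 0.52 (SE 0.06). After BaCl2 Peg3 had 82.0, 145 and 165 CPM in SMA libraries, against 104, 98.9 and 129 CPM in WT libraries. SMA library 1 was the lowest of all 6 and the other SMA libraries were the highest. The log2 fold change of 0.24 (SE 0.21) did not pass (edgeR adjusted p = 0.600). It passed in 1 of the 6 fits that leave out 1 library, at 0.49 without SMA library 1 (edgeR adjusted p = 0.0459). Without SMA library 3 it was 0.044 (edgeR adjusted p = 0.935).

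Plagl1, the second zinc finger factor, had 129, 161 and 181 CPM in SMA libraries after BaCl2, against 132, 130 and 142 CPM in WT libraries. SMA library 1 was again the lowest of all. After glycerol it had 14129, 12787, 18087 and 11754 normalized counts in SMA libraries, against 14300, 15685, 15167 and 13843 in WT libraries, so that the SMA libraries enclosed the WT range. The log2 fold changes were 0.22 (SE 0.11) after BaCl2 and -0.07 (SE 0.12) after glycerol.

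**Figure D1:**
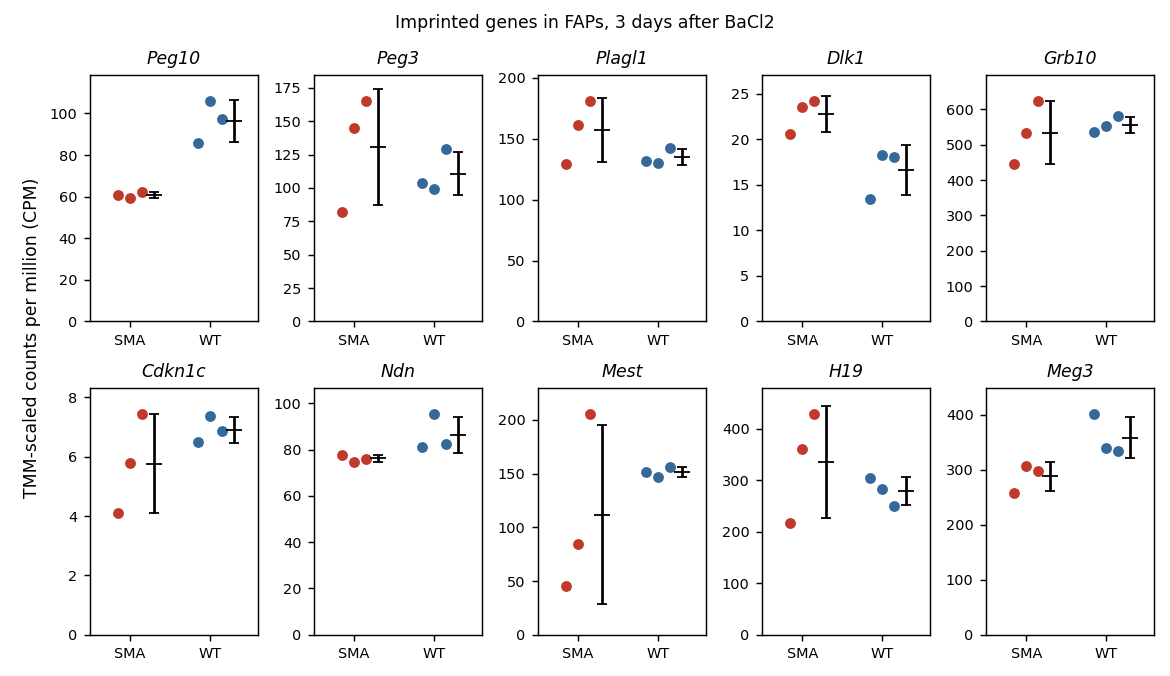
Level of each of the 10 genes in CPM (vertical axes from 0) in the 3 SMA and 3 WT libraries after BaCl2; points are libraries and black marks the mean with SD. The SMA libraries of Peg10 sit at 59.4 to 62.2 CPM, below all WT libraries, and those of Mest spread from 45.3 to 205 CPM.

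Dlk1 is a transmembrane ligand related to the Notch ligands, and its shed form, preadipocyte factor 1, holds back fat cell formation. After glycerol it had 3825, 2748, 2259 and 4435 normalized counts in SMA libraries, against 1392, 1807, 1208 and 683 in WT libraries. Every SMA library lay above every WT library, with 3317 ± 992 in SMA and 1272 ± 466 in WT (SD, n = 4 each) and a log2 fold change of 1.42 (SE 0.30). After BaCl2 Dlk1 had 20.5, 23.5 and 24.2 CPM in SMA libraries, against 13.4, 18.3 and 18.0 CPM in WT libraries. Here too the groups did not overlap, and the log2 fold change was 0.46 (SE 0.12), short of the threshold.

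Grb10, an adaptor that binds the insulin and IGF1 receptors and dampens their signal, differed little between genotypes. It had 444, 534 and 624 CPM in SMA libraries after BaCl2, against 536, 554 and 580 CPM in WT, and 41983 to 46007 normalized counts in SMA and 40413 to 43616 in WT libraries after glycerol. The groups overlapped in both injuries, with log2 fold changes of -0.06 (SE 0.11) and 0.06 (SE 0.05).

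Cdkn1c encodes p57, an inhibitor of cyclin-dependent kinases that takes cells out of the cycle. After glycerol it had 1567, 1406, 1357 and 2545 normalized counts in SMA libraries, against 738, 864, 901 and 973 in WT libraries. The groups did not overlap, SMA stood at 198% of WT, and the log2 fold change was 0.94 (SE 0.19). After BaCl2 it had 4.09, 5.77 and 7.43 CPM in SMA libraries, against 6.50, 7.36 and 6.87 CPM in WT libraries, and the SMA libraries enclosed the WT range (log2 fold change -0.26, SE 0.18). Of its 2039 exon bases, 625 are shared with the predicted gene Gm44732 on the opposite strand, and no source used here says whether strand was used in counting.

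**Figure D2:**
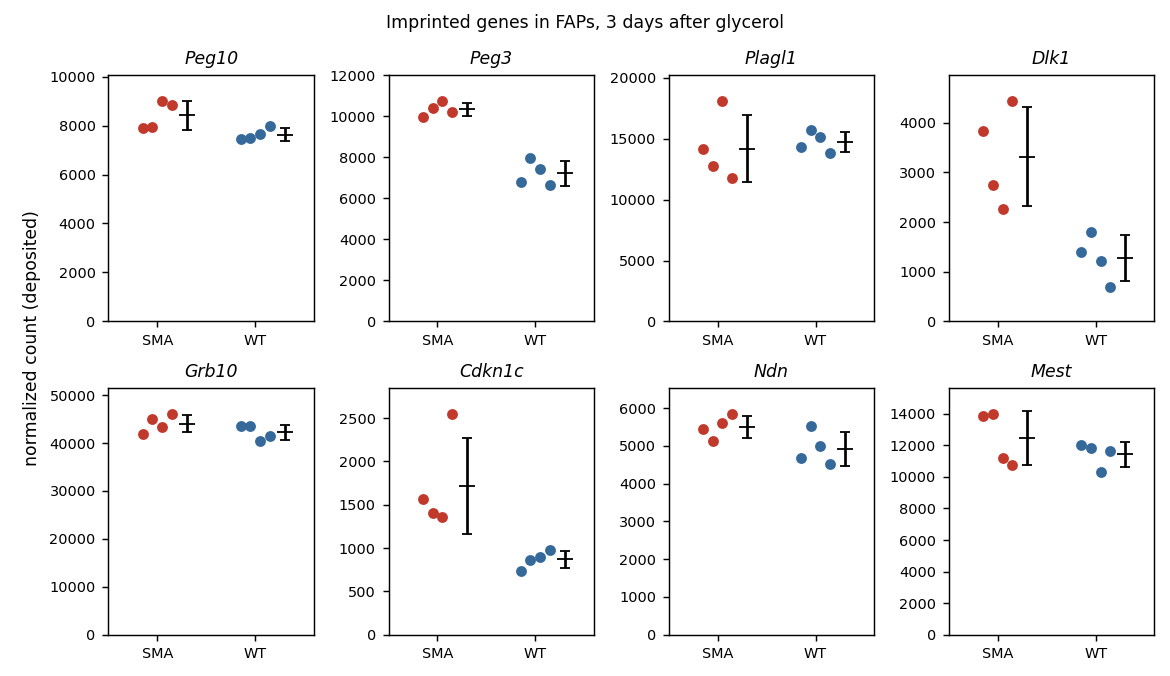
Normalized count of each of the 8 listed genes (vertical axes from 0) in the 4 SMA and 4 WT libraries after glycerol; points are libraries and black marks the mean with SD. Peg3, Dlk1 and Cdkn1c separate the genotypes, and the other 5 genes overlap.

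The macrophage sums of SMA libraries 1 to 4 after glycerol were 279998, 335710, 158207 and 382286. Dlk1 and Cdkn1c were highest in library 4, where the sum was highest, and lowest in library 3, where it was lowest. Between libraries 1 and 2 the order differed, since library 2 had the higher sum and the lower values of both genes. Peg3 was highest in SMA library 3, where the sum was lowest. Among WT libraries the sum was highest in library 4 (169456), where Dlk1 was lowest and Cdkn1c highest. It was lowest in WT library 2 (131663), where Dlk1 was highest, whereas Cdkn1c was lowest in WT library 1. Endothelial markers were lower in SMA libraries, with 5 of 12 past the threshold and sums of 9098 to 11845 in SMA against 15324 to 22422 in WT. Pericyte and smooth muscle markers, with 1 of 10 lower, summed to 18049 to 20974 in SMA against 23432 to 30736 in WT. Neutrophil markers, with 1 of 6 higher, summed to 1376 to 2359 in SMA against 805 to 1285 in WT. The part of these cells in the results was not tested.

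Ndn, which encodes necdin, a MAGE family protein that restrains proliferation, had 77.8, 74.7 and 76.0 CPM in SMA libraries after BaCl2, against 81.1, 95.2 and 82.5 CPM in WT libraries. The groups did not overlap, though SMA library 1 lay only just under WT library 1 (log2 fold change -0.18, SE 0.07). After glycerol it had 5127 to 5836 normalized counts in SMA and 4508 to 5534 in WT libraries, which overlapped (log2 fold change 0.16, SE 0.07).

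Mest, a protein with a hydrolase fold whose expression rises in expanding fat tissue, varied most between libraries of 1 group. It had 45.3, 84.3 and 205 CPM in SMA libraries after BaCl2, against 152, 147 and 156 CPM in WT libraries. SMA libraries 1 and 2 were below the WT range and SMA library 3 was above it, so that the log2 fold change of -0.44 had an SE of 0.40. After glycerol Mest had 10759 to 13967 normalized counts in SMA and 10288 to 12017 in WT libraries (log2 fold change 0.11, SE 0.10). Of its 3945 exon bases, 912 are shared with Copg2 on the opposite strand, so that reads of the pair may be mixed.

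H19, a noncoding RNA that carries the microRNA miR-675, had 216, 361 and 428 CPM in SMA libraries after BaCl2, against 305, 283 and 250 CPM in WT libraries. SMA library 1 was the lowest of all 6 and the other SMA libraries were the highest (log2 fold change 0.26, SE 0.20). Meg3, the maternally expressed noncoding RNA of the Dlk1 cluster, had 258, 307 and 298 CPM in SMA libraries, against 401, 340 and 334 CPM in WT libraries. All SMA libraries lay below all WT libraries, with a log2 fold change of -0.32 (SE 0.09), opposite in sign to that of Dlk1.

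Across all genes, 4.29% passed edgeR's adjusted p under 0.05 after BaCl2, and 1 of the 10 imprinted genes, Peg10, did so. After glycerol 2.87% of all genes passed with limma, and 3 of the 8 listed genes did so, Peg3, Dlk1 and Cdkn1c, all higher. Libraries of the genotypes did not overlap in 25.3% of all genes after BaCl2 and in 4 of the 10, with Dlk1 above and Peg10, Ndn and Meg3 below. After glycerol 14.1% of all genes did not overlap, and 3 of the 8 did not. Since the choice of genes used these contrasts, nothing is read from the counts. At an adjusted p under 0.05 the authors' deposited table has Dlk1 higher and Peg10 and Meg3 lower after BaCl2. After glycerol it has Peg3, Dlk1 and Cdkn1c higher. Of all genes given an adjusted p there, 1693 of 12279 passed after BaCl2 and 1759 of 14075 after glycerol. The glycerol calls changed with the library left out, for all genes as for the members. Over all genes 411 passed with all libraries and 1645 without SMA library 3. In the other fits that leave out 1 library, 0 to 82 passed. Dlk1 and Cdkn1c passed in 1 of the 8 fits that leave out 1 library, the fit without SMA library 3. Peg3 passed in 3 of 8, the fits that leave out SMA library 3, WT library 2 and WT library 4. The log2 fold changes in those fits stayed at 1.14 to 1.61 for Dlk1, 0.74 to 1.04 for Cdkn1c and 0.48 to 0.57 for Peg3.

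**Figure D3:**
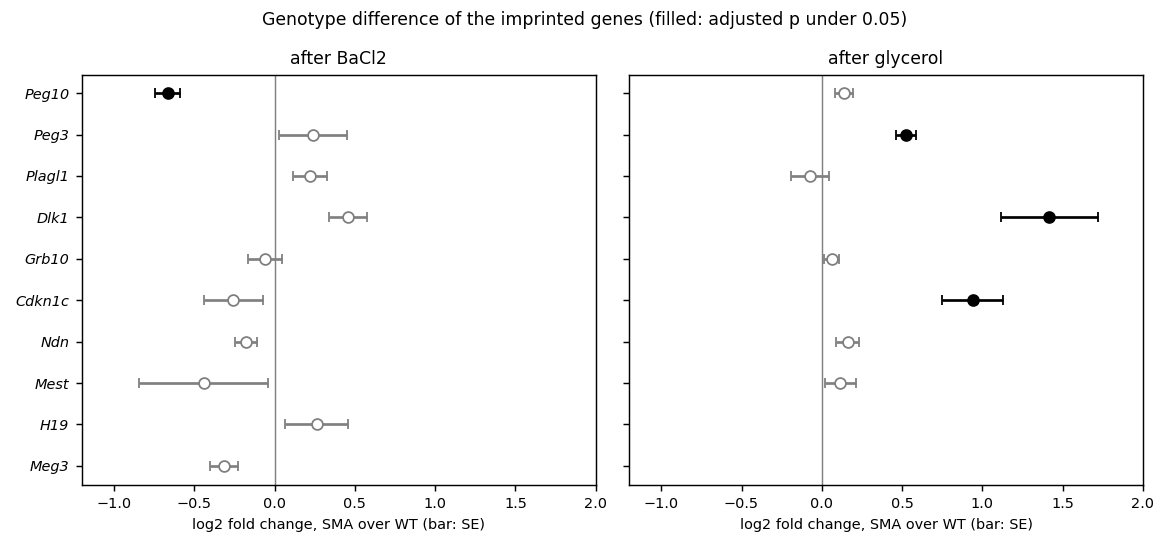
Log2 fold change of SMA over WT (horizontal axes, bars are SE) for each gene after BaCl2 on the left and after glycerol on the right; filled points passed an adjusted p under 0.05. Peg10 lies at -0.67 after BaCl2 and 0.14 after glycerol, and Dlk1 at 0.46 and 1.42; H19 and Meg3 have no point after glycerol.

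The genotype difference after glycerol minus that after BaCl2 was positive for 7 of the 8 genes measured in both, with a median of 0.45, against a median of 0.01 over all 13960 genes fitted in both. Cdkn1c had the greatest difference, 1.20 (95% interval 0.68 to 1.72), followed by Dlk1 at 0.96 (0.32 to 1.59) and Peg10 at 0.81 (0.62 to 0.99). Ndn differed by 0.34 (0.14 to 0.54). These 4 passed the z test, as did 10.5% of all genes. Of the 14 fits that leave out 1 library, Peg10 and Cdkn1c passed in 14, Ndn in 13 (not without WT BaCl2 library 2) and Dlk1 in 5. Dlk1 passed without SMA BaCl2 library 2 or 3, WT BaCl2 library 1, SMA glycerol library 3 or WT glycerol library 2, and not with DESeq2 after BaCl2. For Peg3 the difference was 0.28 with an interval of -0.15 to 0.71, and for Plagl1 -0.29 with one of -0.61 to 0.02. Grb10 and Mest had intervals of -0.10 to 0.35 and -0.25 to 1.37. The z test takes the standard errors as known, which makes its p-values too small, and the choice of genes used both contrasts, so these are descriptions.

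Selected genes near Peg10, Peg3, Dlk1 and H19 in the same imprinted clusters were compared with them. The nearest genes of Cdkn1c, Grb10, Ndn and Mest were left out of this comparison. Sgce, the paternally expressed sarcoglycan gene whose start lies 0.099 kb from that of Peg10 on the other strand, had 51.7, 62.3 and 63.0 CPM in SMA libraries after BaCl2, against 68.9, 76.7 and 76.3 CPM in WT libraries. No libraries overlapped, and the log2 fold change was -0.33 (edgeR adjusted p = 0.0601). In the authors' deposited table Sgce was lower past the threshold after BaCl2. After glycerol its log2 fold change was 0.01 (limma adjusted p = 0.923). Tfpi2, an inhibitor of serine proteases in the same cluster, fell by 0.30 on the log2 scale after BaCl2 (SE 0.06, edgeR adjusted p = 0.0274) and had a log2 fold change of -0.30 after glycerol (SE 0.13, limma adjusted p = 0.192). Ppp1r9a, Pon2, Pon3 and Asb4 did not pass in either injury, with log2 fold changes of -0.16, -0.13, -0.15 and -0.01 after BaCl2 and 0.38, 0.11, 0.02 and -0.10 after glycerol. The call of Tfpi2 held in 1 of 6 fits that leave out 1 library, the one without SMA library 3.

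Near Peg3, the zinc finger gene Zim1 had 786, 977, 680 and 893 normalized counts in SMA libraries after glycerol, against 240, 566, 288 and 485 in WT libraries. The groups did not overlap, with a log2 fold change of 1.15 (SE 0.26, limma adjusted p = 0.0529). In the authors' deposited table Zim1 was higher past the threshold after glycerol. After BaCl2 Zim1 had 5.83, 13.6 and 16.6 CPM in SMA libraries, against 9.84, 8.23 and 11.1 CPM in WT libraries, the same order of SMA libraries as Peg3 (log2 fold change 0.31, edgeR adjusted p = 0.643). Usp29, whose start is 0.147 kb from that of Peg3 on the other strand, averaged 26.1 normalized counts in SMA and 28.2 in WT libraries after glycerol and stayed too low to test after BaCl2.

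In the Dlk1 cluster, the maternally expressed noncoding RNAs beside Meg3 were measured after BaCl2. Mirg had 14.9, 14.1 and 12.7 CPM in SMA libraries, against 17.4, 18.2 and 17.6 CPM in WT libraries, and fell by 0.35 on the log2 scale (SE 0.08, edgeR adjusted p = 0.0406). Rian had 419 to 486 CPM in SMA against 509 to 521 CPM in WT, without overlap (log2 fold change -0.19, edgeR adjusted p = 0.135). Rtl1, the retrotransposon-derived gene read from the paternal copy, had a log2 fold change of -0.10 (edgeR adjusted p = 0.801). Dio3, the deiodinase that inactivates thyroid hormone and also a paternally expressed gene of this cluster, had 291, 321, 244 and 279 normalized counts in SMA libraries after glycerol, against 750, 413, 523 and 756 in WT libraries. It fell by 1.06 on the log2 scale (SE 0.20, limma adjusted p = 0.0353), while Dlk1 of the same cluster was higher. After BaCl2 the log2 fold change of Dio3 was 0.20 (edgeR adjusted p = 0.503). The call of Mirg held in 1 of 6 and that of Dio3 in 1 of 8 fits that leave out 1 library, those without SMA library 1 and without SMA library 3. Beside H19, the growth factor Igf2 averaged 2216 ± 353 normalized counts in SMA and 1521 ± 377 in WT libraries after glycerol (SD, n = 4 each), with a log2 fold change of 0.56 (limma adjusted p = 0.113), and 0.596 ± 0.115 and 0.477 ± 0.170 CPM after BaCl2 (log2 fold change 0.32, edgeR adjusted p = 0.680).

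**Figure D4:**
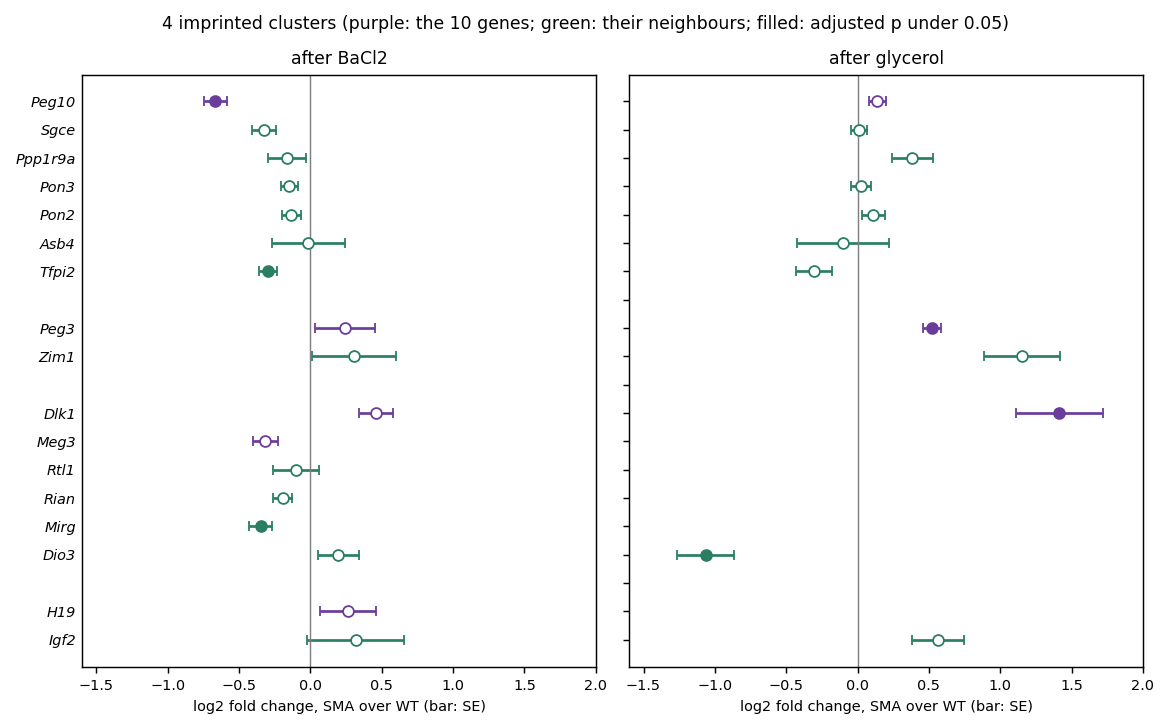
Log2 fold change of SMA over WT (horizontal axes, bars are SE) in 4 imprinted clusters, from the top those of Peg10, Peg3, Dlk1 and H19, after BaCl2 on the left and glycerol on the right; purple points are the described genes, green points their neighbours, and filled points passed an adjusted p under 0.05. After BaCl2 the filled points are Peg10 and Tfpi2 in the top cluster and Mirg in the Dlk1 cluster, and after glycerol Dio3 lies at -1.06 opposite Dlk1 at 1.42.

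Of 64 further imprinted genes, 48 were tested after BaCl2 and 40 after glycerol. The list was drawn from general knowledge, and whether each gene is read from 1 parental copy in FAPs was not measured. After BaCl2 edgeR called 0 higher and 2 lower, Tfpi2 and Mirg, or 4.17% of those tested against 4.29% of all genes. At an unadjusted p under 0.05 there were 2 higher and 11 lower, and no share over all genes was counted at that threshold. The authors' deposited table has 0 higher and 4 lower, Cd81, Sgce, Tfpi2 and Mirg, where 1693 of 12279 genes passed. The median log2 fold change of the 48 was -0.07. The libraries did not overlap in 19 of the 48, 16 of them lower in SMA, where 25.3% of all genes did not overlap. After glycerol limma called 0 higher and 2 lower, Dio3 and H13, a signal peptide peptidase (log2 fold change -0.23, limma adjusted p = 0.0317), or 5% of those tested against 2.87% of all genes. At an unadjusted p under 0.05 there were 4 higher and 3 lower. The authors' deposited table has 2 higher, Igf2 and Zim1, and 2 lower, Dio3 and H13, where 1759 of 14075 genes passed. The call of H13 held in 1 of 8 fits that leave out 1 library, the one without SMA library 3.

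Genes of processes in which members act, and genes that set or keep imprints, were compared as well. Their calls are to be read beside the 4.29% of all genes called after BaCl2 and the 2.87% called after glycerol. Counts from the authors' deposited table after glycerol are to be read beside its 1759 of 14075 genes. No share over all genes was counted at an unadjusted p. Of 16 genes of insulin and IGF signalling, where Grb10 acts, edgeR called 1 after BaCl2: Rptor, a subunit of the mTORC1 growth kinase complex, was higher by 0.27 on the log2 scale (adjusted p = 0.0345). After glycerol limma called 0 of 16, with 2 higher and 3 lower at an unadjusted p under 0.05 and 1 higher and 1 lower in the authors' deposited table. Of 19 cyclin-dependent kinases, cyclins and inhibitors, among which Cdkn1c acts, 2 were higher after BaCl2. Cdk6 was higher by 0.61 (edgeR adjusted p = 0.0405) and Cdkn1a, which encodes the inhibitor p21, by 0.36 (edgeR adjusted p = 0.0479). After glycerol limma called 0 of 19, with 3 higher and 4 lower at an unadjusted p under 0.05 and 1 higher and 2 lower in the authors' deposited table. Of 17 genes that set or keep imprints, Uhrf1, which brings the maintenance methyltransferase to new DNA, was higher by 0.25 after BaCl2 (edgeR adjusted p = 0.0451). After glycerol limma called 0 of 17, with 2 higher and 2 lower at an unadjusted p under 0.05 and 1 higher in the authors' deposited table.

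Within groups, SMA library 1 after BaCl2 held the lowest value of the 3 SMA libraries in 8 of the 10 genes, and SMA library 3 the highest in 8. Library 1 also had the highest macrophage sum (3696 CPM) and the lowest FAP sum (46703 CPM), and library 3 the reverse among SMA libraries (2557 and 59859 CPM). Their part in the levels was not tested. Peg10 and Ndn were the exceptions to the low values of library 1. Correlations between members were computed on deviations from the group mean, 45 pairs in all, of which 28 span 14 libraries and 17 the 6 BaCl2 libraries. With permutation within groups 0 of 45 passed after adjustment. The 17 pairs of the 6 BaCl2 libraries could hardly pass, since their smallest possible permutation p is 0.0278 before adjustment. Nothing is drawn from their failing. The pair with the smallest p was Peg3 with Plagl1 (Pearson r = 0.67, permutation p = 0.00135, adjusted 0.0608; Spearman rho = 0.78, permutation p = 0.00127, adjusted 0.0572). It was 0.43 without the 2 libraries farthest in Peg3, 0.98 within the BaCl2 libraries, 0.48 within the glycerol libraries and 0.48 without SMA BaCl2 library 1. Over the 28 pairs the median r was 0.28, with 0.54 within the BaCl2 libraries and 0.09 within the glycerol libraries. No median was computed for pairs of other genes, so nothing about the members is drawn from these.

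**Figure D5:**
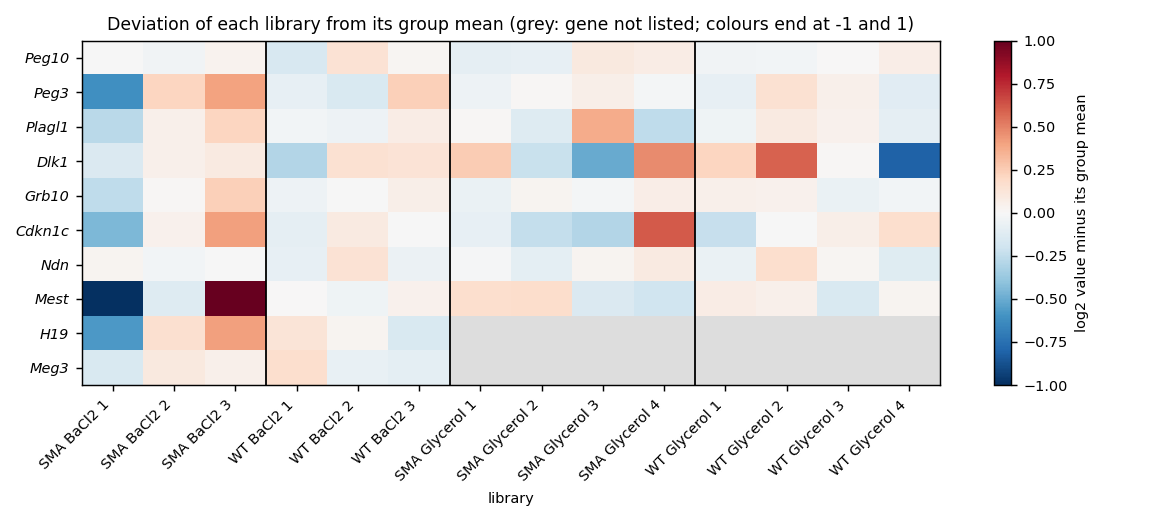
Deviation of each library's log2 value from the mean of its group (colour, from -1 in blue to 1 in red) for the 10 genes in rows and the 14 libraries in columns; grey marks genes not listed. The column of SMA BaCl2 library 1 is blue for 8 of the 10 genes, and Mest leaves the colour range in SMA BaCl2 libraries 1 and 3.

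The genes whose deviations over the 14 libraries were most like those of Peg10, of 12138 searched, were Osbp (Pearson r = 0.92), Fosl1 (0.91), Srp54c (0.90), Sec31a (0.89) and Rhou (0.88). For Osbp r was 0.94 within the BaCl2 and 0.92 within the glycerol libraries. Those most like Peg3 were Deaf1 (Pearson r = 0.96), Lrp6 (0.95), Zer1 (0.93), Phactr2 (0.93) and Wdr86 (0.93). For Deaf1 r was 0.98 within the BaCl2 and 0.85 within the glycerol libraries, and for Lrp6 it was 0.99 and 0.49. These values are the highest of a large search over few libraries, and all genes of a library share its depth and cell makeup.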

How the data were processed

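Poly(A) RNA of 14 libraries of mouse FAPs was sequenced, 6 after BaCl2 and 8 after glycerol. The BaCl2 table holds whole-number read counts per gene as the authors deposited them. The glycerol table holds the authors' normalized counts, a signal from which whole reads could not be recovered, and its depth is unknown. Both tables also carry log2 fold changes and adjusted p-values that, per the file headers, the authors computed, and they serve here as a second reading. A further 6 columns, of z-scores, were left out. Per the submitters' processing notes DESeq2, fastp, featureCounts and Salmon were used, with no version or role stated. The sources used here give no build or annotation.

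DESeq2 1.42.0, edgeR 4.0.16 and limma 3.58.1 were run in R 4.3.3. BaCl2 counts were scaled with TMM, filtered with filterByExpr and compared by edgeR's quasi-likelihood F test over 20119 genes. The plan foresaw a count test only for that table, and glycerol values were fitted as log2(value + 1) with limma and a mean-variance trend over 14330 genes, so that fold changes of low genes are understated. P-values were adjusted by Benjamini and Hochberg over all genes, with a threshold of 0.05. Folds are SMA over WT. The difference between injuries is that of the separate fits over the root of the summed squared SEs, a two-sided z test. Correlations used 100000 permutations within groups, two-sided (all arrangements for the 6 BaCl2 libraries). The fits were tested on simulated data. Replicate counts of 1 group differed by more than sampling noise. The members and gene lists were chosen with earlier results of these data known. All 10 members are named, as are further listed genes past the threshold and the 5 genes most like Peg10 and Peg3. Selected neighbours are named for the clusters of Peg10, Peg3, Dlk1 and H19. Exon lengths and overlaps come from GENCODE vM21, whose build may not be that of the tables, and no coordinates are given from the tables. Genotypes were the only term in each fit. Alternatives covered the scaling, tool, filter, pseudocount, variance trend, a replicate block and each library left out.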

Additional observations from a re-analysis of the deposited data

Results flagged for a closer look

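The genotype effect after glycerol minus that after BaCl2 passed the z test for 4 of the described genes and 4 other imprinted genes, of 47 tested. Over all genes 10.5% passed, and the share among the other imprinted genes was 10.3% (4 of 39). The described genes were Cdkn1c with a difference of 1.20, Dlk1 with 0.96, Peg10 with 0.81 and Ndn with 0.34 on the log2 scale. These were chosen with both contrasts in view, and Dlk1 passed in 5 of the 14 fits that leave out 1 library. The others were Kcnq1 with -2.31, Dio3 with -1.26, Dcn with 0.40 and Sgce with 0.34. Kcnq1, a potassium channel gene, was low in both tables, with means of 0.744 CPM in SMA against 0.360 CPM in WT after BaCl2, and of 24.6 normalized counts in SMA against 51.2 in WT after glycerol. Dcn, which encodes decorin and is also a FAP marker, had log2 fold changes of 0.17 after glycerol and -0.23 after BaCl2. The tables were normalized separately, and injury is the batch.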

How the results depend on the processing

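Calls after glycerol and the number of calls after BaCl2 depended on the fit. After BaCl2 the described genes called were 1 as reported, 3 with DESeq2 and 3 with no filter on low counts (Dlk1 and Meg3 added), and 1 to 4 with each library left out. Leaving out SMA libraries 1 and 2 leaves 1 SMA library, assumed to vary like the WT libraries. Log2 fold changes were then 0.61 for H19 and -0.63 for Peg10. Other imprinted genes called were 2 as reported, 4 with DESeq2, 5 with no filter, 0 without SMA libraries 1 and 2, and 0 to 4 with each library left out. Peg3 after BaCl2 ranged from a log2 fold change of 0.044 to 0.49 with each library left out. After glycerol the described genes called were 3 as reported, 0 without the mean-variance trend and 0 to 3 with each library left out, and the other imprinted genes 2, 0 and 0 to 4. Over all genes, the calls after BaCl2 were 863 as reported, 1752 with DESeq2, 1867 with no filter, 108 without SMA libraries 1 and 2 and 41 to 1577 with each library left out. After glycerol they were 411 as reported, 2 without the trend and 0 to 1645 with each library left out. The difference between injuries called 2 to 5 of the 8 genes, and correlations passing were 0 to 1, with each library left out. The cause was not tested.

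Replicate numbers did not pair the samples (correlation of same-numbered deviations -0.035 to 0.023 after BaCl2 and -0.071 to 0.071 after glycerol). With the replicate number as a block, described genes called were 2 after BaCl2 and 2 after glycerol, other imprinted genes 3 and 1, the difference between injuries 5, and all genes 1144 and 257. Peg3 after BaCl2 was then 0.19 and Peg10 after glycerol 0.14, neither past the threshold.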
